A study of Sus scrofa with 12 samples.

Results

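SOD2 and 9 other antioxidant genes (SOD1, SOD3, CAT, GPX1, HMOX1, NQO1, TXNRD1, GCLM and SRXN1) are described here in smooth muscle cells cultured from coronary arteries of the pig (Sus scrofa). The genes were chosen by symbol, with earlier results of these data in view, and 8 of the 10 were found among the 21153 genes of the count table. GPX1 and HMOX1 matched no row of the table by symbol and were not analysed here. All 8 genes found passed the filter on low counts, as did 12444 genes in all. RNA sequencing counts were available for 12 libraries in 4 groups of 3: control cells, cells given platelet-derived growth factor BB (PDGF-BB) at 30 ng/ml, cells given the calcium-binding protein S100A4 at 1 µg/ml, and cells given both. Every group was treated for 4 h. All groups were primary cultures between passages 6 and 11, plated at 60 cells/mm2 in 35 mm dishes with 10% fetal calf serum, and treatment began 24 h after plating. The labels call the cells differentiated and contractile and name no genetic change. The design text states that cells came from 3 animals, but no label ties a replicate number to an animal. The p-values below therefore rest on the spread between these libraries, which the main and paired fits described below take differently.

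Superoxide dismutases turn superoxide into hydrogen peroxide, and the family members differ by place and metal: SOD2 is the manganese enzyme of the mitochondrial matrix, SOD1 the copper and zinc enzyme of the cytosol, and SOD3 the secreted copper and zinc enzyme of the vessel wall. Hydrogen peroxide is then removed by catalase, by glutathione peroxidases and by peroxiredoxins, which draw on glutathione and thioredoxin. Many genes of the glutathione and thioredoxin systems are targets of the transcription factor NRF2, while SOD2 is widely known as a target of NF-kappaB in cells exposed to inflammatory signals.

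Levels are given as CPM, counts scaled to library size, which are not scaled by transcript length, so they are compared between libraries and never between genes. Library totals lay between 21455021 and 32448438 counts. The first principal component, with 49.9% of the variance, set the 4 libraries of replicate 2 apart. Of 9 smooth muscle markers all were found, and their summed level was 9742 to 11590 CPM in replicate 2 and 20730 to 25660 CPM in the other replicates, with ACTA2 at 6552 CPM or more everywhere but TAGLN at 3.21 to 7.21 CPM. The 7 fibroblast markers found of 8 summed to 1062 to 1220 CPM in replicate 2 and 273.6 to 483 CPM in the others. The 6 endothelial markers found of 8 summed to 55.2 to 127 CPM in control and 59.5 to 137 CPM with S100A4, against 121 to 203 CPM with PDGF-BB and 133 to 192 CPM with both proteins, and KDR never passed 4 counts. The higher sums with PDGF-BB came with ERG, at a mean of 50.5 CPM in control and 118 CPM with PDGF-BB, while CDH5 stood at 23.9 and 24.3 CPM and PECAM1 at 11.2 and 13.0 CPM. The 8 macrophage markers summed to 11.8 CPM at most, with PTPRC and C1QA at 0 in every library. The 5 pericyte markers summed to 312 to 420.3 CPM in replicate 2 and 1129 to 1917 CPM in the others. Most of this was CSPG4, at 221 to 1380 CPM, and NOTCH3, at 62.2 to 640.5 CPM. RGS5, KCNJ8 and ABCC9 reached 7.40, 1.09 and 1.41 CPM at most. In replicates 1, 2 and 3 the pericyte sum was 1129, 319 and 1493 CPM in control, and 1637, 420.3 and 1917 CPM with PDGF-BB. In bulk RNA, fewer cells of a type and less RNA per cell cannot be told apart.

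Tests came from edgeR's quasi-likelihood method, fitted across all 12444 genes, with Benjamini-Hochberg adjustment and a threshold of 0.05. The main fit holds the 4 group means. A second fit adds the replicate number as a term and is called the paired fit. Differences between replicate numbers add to the spread in the main fit and are taken out of it in the paired fit. A gene that the main fit does not call can thus still differ within replicate numbers. SOD2, the gene that names the set, is described by its values and was given no test. The other 7 genes were chosen with the same earlier results known. Their calls and p-values therefore describe these genes and are no independent test of the set. The count over the other 7 genes in the main fit was 0 for PDGF-BB against control, where 14.7% of all genes were called. Of the 7, 2 had an unadjusted p under 0.05 in edgeR and DESeq2 called 1, beside 3354 and 2336 of all 12444 genes. The main fit count was also 0 for S100A4 against control, where 0.563% of all genes were called. There 1 of the 7 had an unadjusted p under 0.05 in edgeR and DESeq2 called 1, beside 767 and 205 of all genes. For both proteins against control the main fit count was 2, with 22% of all genes called. There 3 of the 7 had an unadjusted p under 0.05 in edgeR and DESeq2 called 3, beside 4143 and 3165 of all genes. In the paired fit 5 of 7 genes were called for PDGF-BB, against 48.8% of all genes, 1 of 7 for S100A4, against 10.7%, and 5 of 7 for both proteins, against 56.1%. The shares called were thus large among all genes too in the comparisons that hold PDGF-BB.

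SOD2 (ENSSSCG00000040317; RefSeq, build Sscrofa11.1, chr1:7679352-7689564) stood highest in the cells given S100A4 alone. Its level in replicates 1, 2 and 3 was 152, 186 and 127 CPM in control. It was 125, 161 and 136 CPM with PDGF-BB. With S100A4 it was 508, 817 and 563 CPM. The cells given both had 273, 480 and 339 CPM. The S100A4 libraries all lay above the libraries given both proteins, which all lay above every control and PDGF-BB library, while the control and PDGF-BB libraries overlapped. The means were 155 ± 29.7 CPM in control, 141 ± 18.7 CPM with PDGF-BB, 629 ± 165 CPM with S100A4 and 364 ± 106 CPM with both (SD, n = 3 each). Replicate 2 held the highest value in each of the 4 groups.

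**Figure D1:**
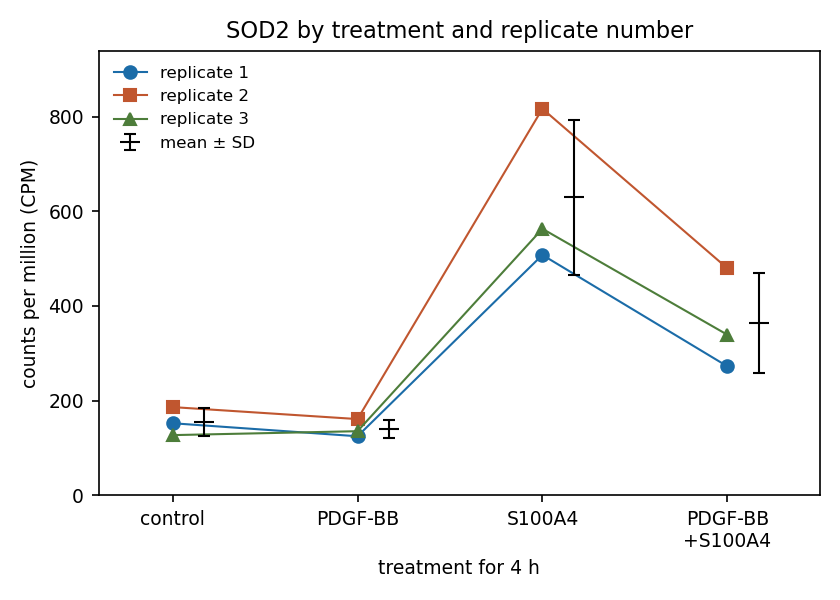
SOD2 level in CPM (linear axis from 0) in each of the 12 libraries, by treatment; lines join libraries with the same replicate number, and the bars show the group mean ± SD. The S100A4 libraries lie between 508 and 817 CPM and those given both proteins between 273 and 480 CPM, above all control and PDGF-BB libraries.

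Within a replicate number, S100A4 alone went with a 3.33-fold, a 4.38-fold and a 4.42-fold higher SOD2 level, and the fitted difference was 2.02 ± 0.25 on the log2 scale (SE; 4.05-fold). S100A4 on top of PDGF-BB went with a 2.59-fold higher level than PDGF-BB alone (log2 difference 1.37 ± 0.25). Both proteins together stood 2.34-fold above control (1.23 ± 0.24). PDGF-BB alone differed from control by −0.15 ± 0.24 on the log2 scale, with replicates at −0.29, −0.21 and 0.09, and this difference was 0.01 without control replicate 2. When PDGF-BB was added to S100A4, SOD2 was 1.73-fold lower than with S100A4 alone, with log2 differences of −0.90, −0.77 and −0.73 in the 3 replicates. The S100A4 effect was thus smaller with PDGF-BB than without it in every replicate, by 0.61, 0.56 and 0.82 (differences on the log2 scale of −0.61, −0.56 and −0.82). The fitted difference of the effects was −0.65 ± 0.34 in the main fit and −0.65 ± 0.13 in the paired fit. Leaving out 1 library at a time, or 1 replicate number from all groups, moved the S100A4 difference between 1.79 and 2.17 and the difference of the effects between −0.90 and −0.42.

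SOD1 and SOD3 did not share this pattern. SOD1 (ENSSSCG00000021355; chr13:195326573-195335273) was at 29.5, 34.9 and 25.3 CPM in control replicates 1, 2 and 3. It was at 33.5, 35.4 and 27.1 CPM with PDGF-BB, and at 35.7, 34.5 and 28.1 CPM with S100A4. Both proteins together gave 37.6, 32.6 and 29.5 CPM. The 4 groups overlapped, and replicate 3 was lowest in each. The log2 differences from control were 0.10 ± 0.15 with PDGF-BB, 0.13 ± 0.15 with S100A4 and 0.15 ± 0.15 with both (SE), with edgeR adjusted p of 0.78, 1.0 and 0.56 and paired fit adjusted p of 0.28, 0.30 and 0.085. In the paired fit the 95% interval of the S100A4 difference ran from −0.02 to 0.28. Replicate 2 went the other way from replicates 1 and 3 with both proteins (−0.10, against 0.35 and 0.22). Without replicate 2 the paired fit called SOD1 higher with both proteins (0.30, adjusted p 0.0015) and with S100A4 (0.23, adjusted p 0.049). The smooth muscle and fibroblast marker sums of replicate 2 differ from those of the other replicates as given above, and their part in this was not tested.

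SOD3 (ENSSSCG00000028814; chr8:18796633-18802156), the secreted enzyme, differed mostly by replicate number and rose modestly with PDGF-BB in the paired fit. It was at 201, 428 and 261 CPM in control replicates 1, 2 and 3, and at 241, 476 and 323 CPM with PDGF-BB. It was at 193, 432 and 275 CPM with S100A4. The combination gave 260.5, 466 and 333 CPM. Replicate 2 was highest and replicate 1 lowest in all 4 groups, so the groups overlapped widely. The log2 difference from control was 0.24 ± 0.05 with PDGF-BB (SE; edgeR paired fit adjusted p 0.0015, main fit adjusted p 0.80), with all 3 replicates higher (0.26, 0.16 and 0.31). With both proteins it was 0.28 ± 0.05 (paired fit adjusted p 3.4e-04, main fit adjusted p 0.72). With S100A4 alone it was 0.01 ± 0.05 (paired fit adjusted p 0.92), with a 95% interval from −0.10 to 0.12. The fibroblast markers too were highest in replicate 2, and their part in the SOD3 levels was not tested. Within a replicate number the fibroblast sum was not higher with PDGF-BB in replicates 1 and 2, where it was 425.5 and 1062 CPM against 483 and 1220 CPM in control, and was 291 against 274 CPM in replicate 3.

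CAT (ENSSSCG00000013302; chr2:26493664-26533881) encodes catalase, the peroxisomal enzyme that breaks hydrogen peroxide down, and it was lower wherever PDGF-BB was present. It was at 44.0, 38.6 and 35.8 CPM in control replicates 1, 2 and 3, and at 34.4, 32.97 and 29.4 CPM with PDGF-BB. With S100A4 it was at 42.4, 37.2 and 32.1 CPM. The libraries given both had 32.8, 30.1 and 28.9 CPM. Every library given PDGF-BB, alone or with S100A4, lay below every control library, while the S100A4 libraries overlapped with control. With both proteins CAT fell by 0.37 on the log2 scale (SE 0.12; 1.29-fold lower; edgeR adjusted p 0.044). That call was lost, with adjusted p of 0.057 to 0.18, in 10 alternatives: without a filter on low counts, with only the groups compared in the fit, and without replicate 1, 2 or 3 of all groups, control replicate 1 or 2, or any 1 of the 3 libraries given both proteins. In the paired fit the same difference was −0.37 ± 0.05 (adjusted p 5.1e-05), and it passed without each replicate in turn. PDGF-BB alone gave −0.29 ± 0.05 in the paired fit (adjusted p 4.4e-04; main fit adjusted p 0.13). S100A4 alone gave −0.09 ± 0.05 (paired fit adjusted p 0.36).

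TXNRD1 (ENSSSCG00000000843; chr5:80170334-80213889) encodes the cytosolic thioredoxin reductase, a selenoenzyme that uses NADPH to keep thioredoxin reduced. It was higher with each protein and highest with both. Its level in replicates 1, 2 and 3 was 226.5, 242 and 234 CPM in control and 301, 260.4 and 336 CPM with PDGF-BB. With S100A4 it was 320.2, 369 and 365 CPM. The combination took it to 436, 396 and 508 CPM. All treated libraries lay above all control libraries, and all libraries given both proteins lay above those given either protein alone, while the PDGF-BB and S100A4 libraries overlapped. The mean was 234 ± 7.9 CPM in control, 299 ± 37.6 CPM with PDGF-BB, 351 ± 27.0 CPM with S100A4 and 446 ± 56.5 CPM with both (SD, n = 3 each).

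With both proteins TXNRD1 rose 1.91-fold (log2 difference 0.93 ± 0.12, SE; edgeR adjusted p 3.9e-04), and all 3 replicates were higher (0.94, 0.71 and 1.12). Without replicate 1 of all groups the main fit gave the same size, 0.93, with adjusted p 0.054. The share of all genes called higher was 13.2% and lower 8.75% in this comparison. PDGF-BB alone gave 0.35 ± 0.11 (adjusted p 0.067; paired fit 0.35 ± 0.08, adjusted p 0.0017). The main fit called TXNRD1 in this comparison when replicate 2 of all groups was left out (0.49, adjusted p 0.024) or the PDGF-BB library of replicate 2 alone (0.44, adjusted p 0.036). S100A4 alone gave 0.58 ± 0.11 (adjusted p 0.063; paired fit 0.58 ± 0.08, adjusted p 1.5e-04), and DESeq2 called it too (adjusted p 4.9e-04). The S100A4 effect on TXNRD1 was 0.58 ± 0.08 without PDGF-BB and 0.58 ± 0.08 with it in the paired fit. Their difference was −0.01 ± 0.11, with a 95% interval from −0.23 to 0.22.

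SRXN1 (ENSSSCG00000023298; chr17:34582377-34589308) encodes sulfiredoxin, which restores peroxiredoxins that hydrogen peroxide has over-oxidised. It was at 71.4, 65.0 and 74.6 CPM in control replicates 1, 2 and 3, and at 83.0, 78.6 and 98.9 CPM with PDGF-BB. With S100A4 it was at 69.0, 70.7 and 88.4 CPM. With both proteins it was at 85.7, 85.2 and 115 CPM. Every library given PDGF-BB, alone or with S100A4, lay above every control library, and the S100A4 libraries overlapped with control. SRXN1 rose by 0.30 ± 0.06 on the log2 scale with PDGF-BB (SE; paired fit adjusted p 6.3e-04; edgeR main fit adjusted p 0.21). With both proteins it rose by 0.42 ± 0.06 (paired fit adjusted p 2.2e-05, main fit adjusted p 0.056). DESeq2, also without the replicate term, called this rise (0.42, adjusted p 0.036). With S100A4 alone the difference was 0.10 ± 0.06 (paired fit adjusted p 0.30), and the 3 replicates stood at −0.05, 0.12 and 0.24.

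GCLM (ENSSSCG00000037549; chr4:123371198-123390130) encodes the regulatory subunit of glutamate-cysteine ligase, the enzyme of the first step of glutathione synthesis. It was at 43.4, 50.9 and 41.2 CPM in control replicates 1, 2 and 3, and at 39.8, 43.2 and 39.4 CPM with PDGF-BB. With S100A4 it was at 43.1, 51.8 and 44.7 CPM. With both proteins it was at 41.1, 44.4 and 38.4 CPM. The 4 groups overlapped, with the libraries given PDGF-BB lower than their numbered control in all 6 cases. The paired fit called it lower with PDGF-BB (−0.14 ± 0.05, SE; adjusted p 0.030) and with both proteins (−0.13 ± 0.05; adjusted p 0.045), where the edgeR main fit gave adjusted p of 0.42 and 0.43. Neither call remained when any 1 of the 3 replicate numbers was left out of the paired fit (adjusted p 0.056 to 0.34). S100A4 alone gave 0.04 ± 0.05, with a 95% interval from −0.07 to 0.15.

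NQO1 (ENSSSCG00000002754; chr6:17292962-17302593), a quinone reductase and a classic NRF2 target, did not pass the test in any comparison or fit. It was at 55.1, 47.8 and 124 CPM in control replicates 1, 2 and 3, and at 48.9, 45.1 and 123 CPM with PDGF-BB. With S100A4 it was at 53.4, 46.4 and 122 CPM, and with both proteins at 53.1, 44.7 and 117 CPM. Replicate 3 stood far above the others in every group, and 99.4% of the variation of its log2 CPM went with replicate number. The paired fit gave narrow intervals for it: the S100A4 difference was −0.04 with a 95% interval from −0.13 to 0.06, and the PDGF-BB difference −0.09 with an interval from −0.18 to 0.01.

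**Figure D2:**
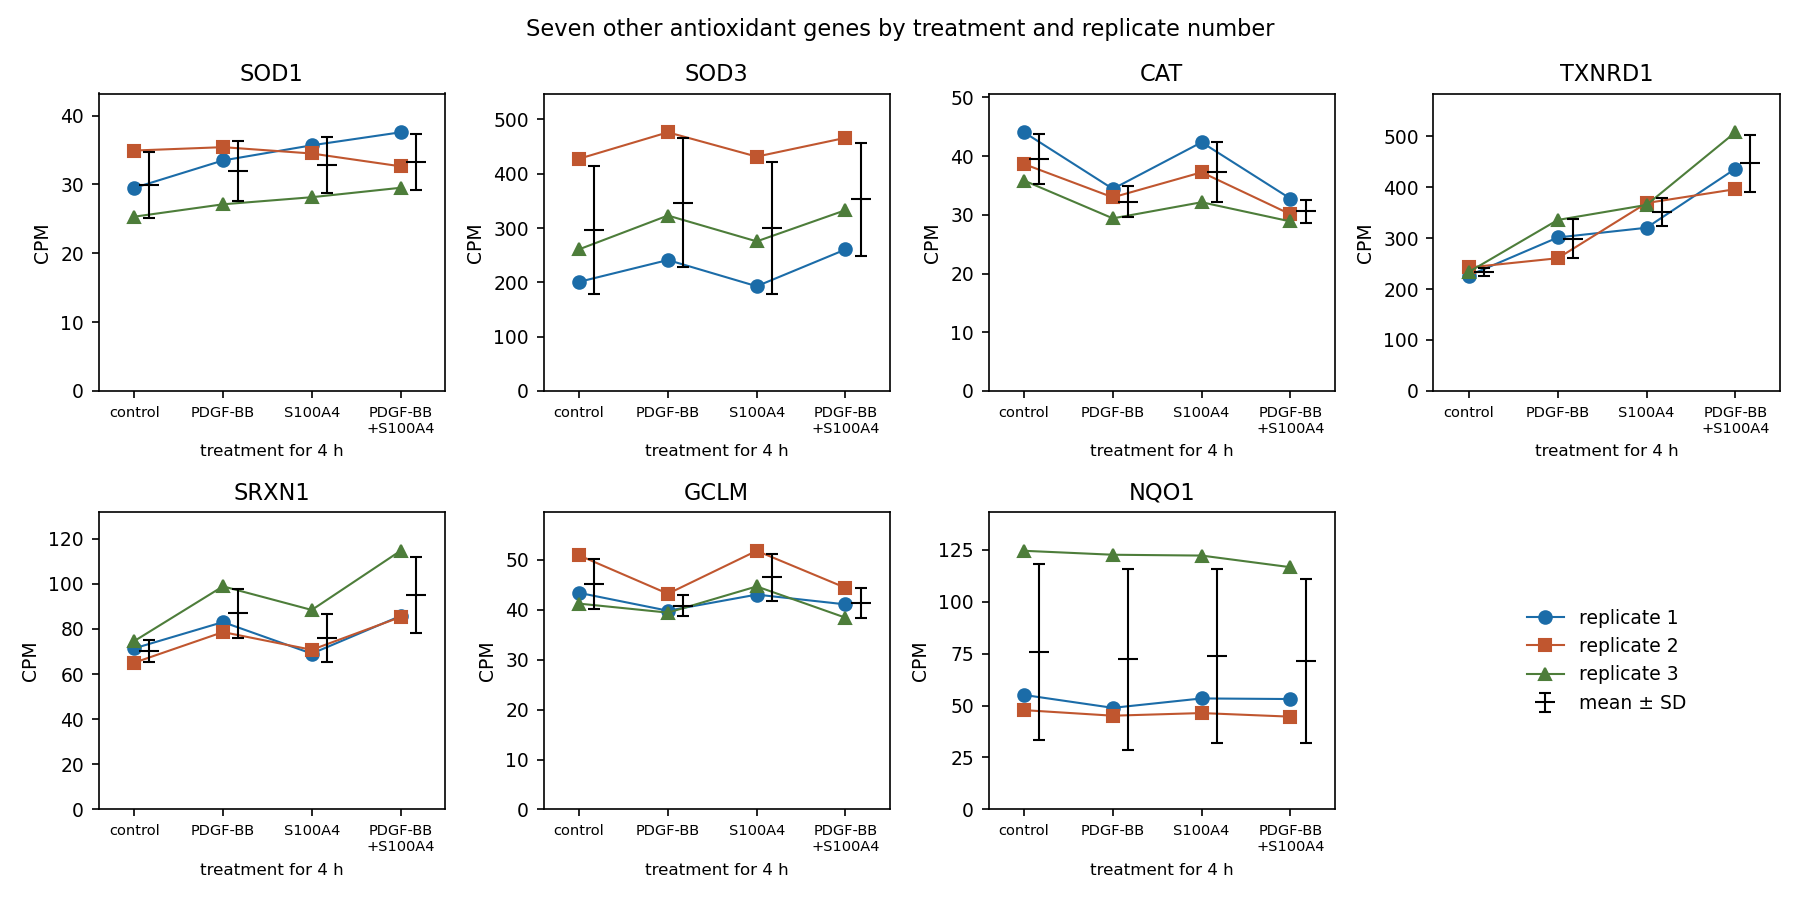
Levels in CPM (linear axes from 0, a scale for each gene) of the 7 genes other than SOD2 in each of the 12 libraries; lines join libraries with the same replicate number and bars show the mean ± SD. TXNRD1 rises from 226.5 to 242 CPM in control to 396 to 508 CPM with both proteins, while NQO1 and SOD3 keep their order by replicate number in all groups.

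The 8 genes thus fell apart by what their levels followed. The share of the variation in log2 CPM that went with treatment was 92.0% for SOD2 and 89.3% for TXNRD1. It was 60.8% for CAT, 54.2% for SRXN1 and 38.2% for GCLM, where replicate number took 35.3%, 39.4% and 53.95%. It was 12.1% for SOD1, 8.65% for SOD3 and 0.352% for NQO1, where replicate number took 71.9%, 89.9% and 99.4%.

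**Figure D3:**
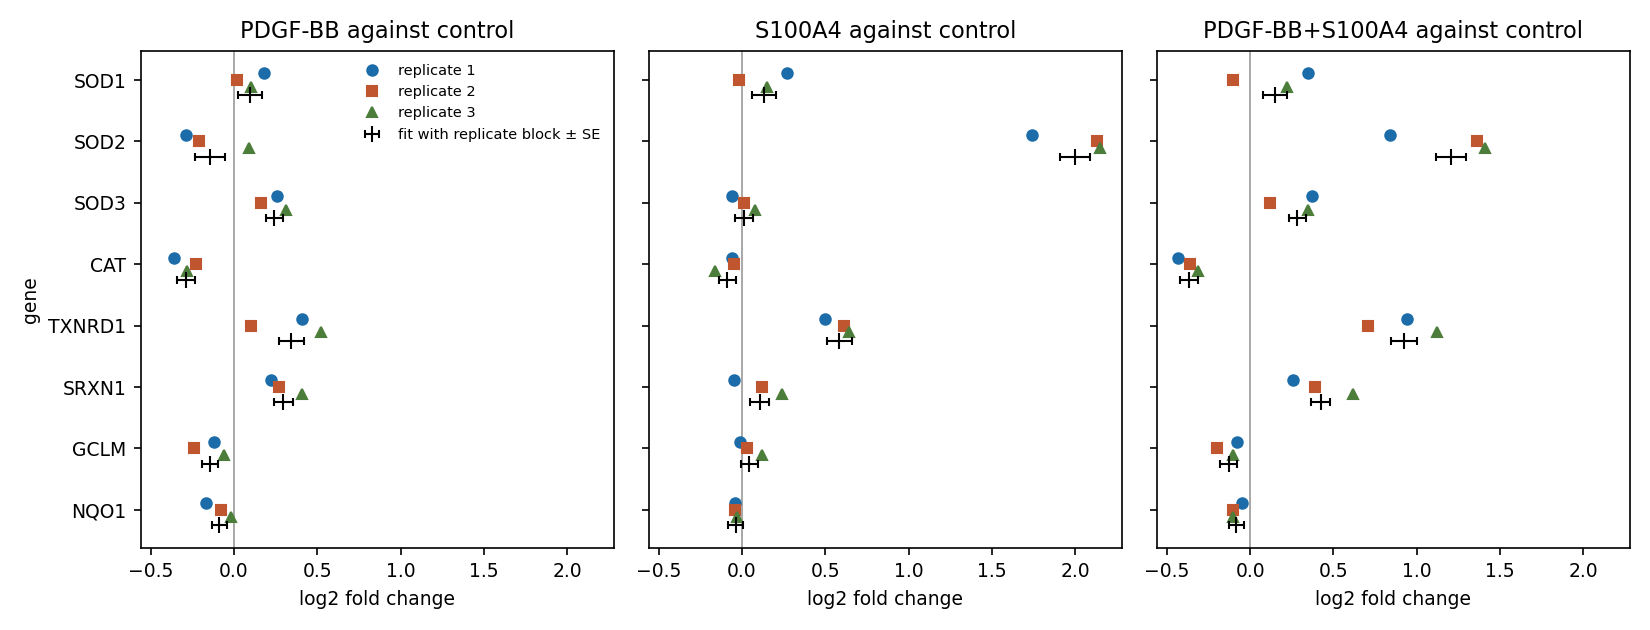
Log2 difference from control for each of the 8 genes in the 3 comparisons with control; coloured points are the 3 replicate numbers and black marks the estimate of the paired fit ± SE. With S100A4 the SOD2 points lie between 1.74 and 2.15 and those of TXNRD1 between 0.50 and 0.64, while the other genes lie near 0.

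By direction, the paired fit called SOD3, TXNRD1 and SRXN1 higher and CAT and GCLM lower with PDGF-BB, where 24.3% of all genes were called higher and 24.5% lower. The same genes in the same directions were called with both proteins, where 27.5% of all genes were called higher and 28.6% lower. These comparisons share the control libraries. With S100A4 alone TXNRD1 was the 1 gene of 7 called, against 6.46% of all genes called higher and 4.28% lower. In the main fit the corresponding shares of all genes were 9.09% higher and 5.62% lower with PDGF-BB, and 0.554% higher and 0.00804% lower with S100A4.

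The next comparisons ask what 1 protein does when the other is present. Adding S100A4 to PDGF-BB changed TXNRD1 alone among the 7 in the paired fit (0.58 ± 0.08, SE; adjusted p 2.3e-04), against 7.14% of all genes. The edgeR main fit called 0 of 7 there, against 0.273% of all genes. Of the 7, 1 had an unadjusted p under 0.05 in edgeR and DESeq2 called 1, beside 599 and 123 of all genes. Adding PDGF-BB to S100A4 changed SOD3 (0.27 ± 0.05), TXNRD1 (0.34 ± 0.08) and SRXN1 (0.32 ± 0.06) upwards and CAT (−0.28 ± 0.05) and GCLM (−0.17 ± 0.05) downwards in the paired fit, with adjusted p of 3.5e-04 to 0.013, against 47.8% of all genes. The TXNRD1 call there was lost without replicate 1 (adjusted p 0.058), and that of GCLM without replicate 2 or 3 (adjusted p 0.067 and 0.12). The main fit called 0 of 7, against 15% of all genes. Of the 7, 3 had an unadjusted p under 0.05 in edgeR and DESeq2 called 0, beside 3416 and 2318 of all genes.

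The interaction asks whether the S100A4 effect differs with PDGF-BB. None of the 7 genes was called for it by edgeR in either fit, none had an unadjusted p under 0.05 in the main fit and DESeq2 called 0. Over all genes the main fit called 0% (152 genes at an unadjusted p under 0.05, and 1 gene called by DESeq2) and the paired fit 0.113%. In the paired fit the difference of effects lay between −0.07 (SOD1) and 0.04 (NQO1) for the 7 genes, beside −0.65 for SOD2.

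**Figure D4:**
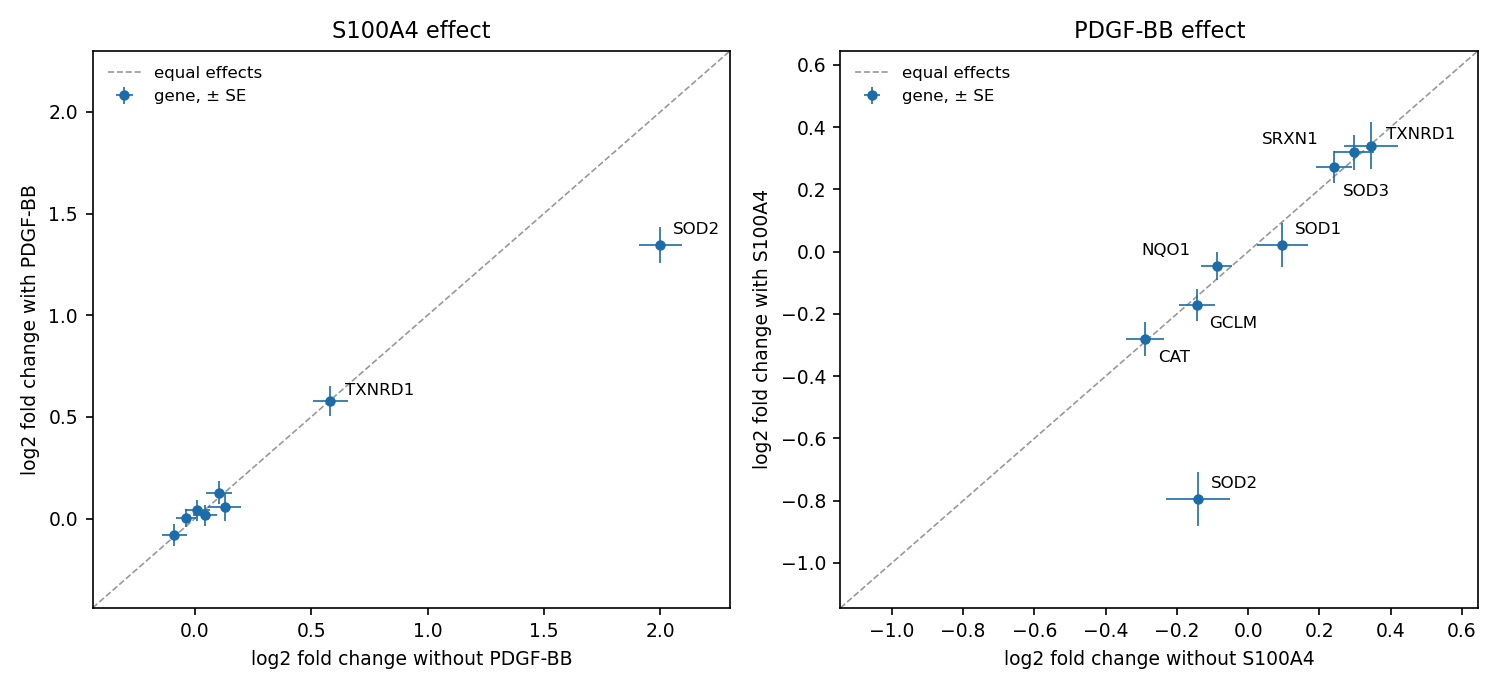
Effects of one protein without (x axis) and with (y axis) the other, as log2 differences from the paired fit ± SE, for the 8 genes; the dashed line marks equal effects. The S100A4 effect on SOD2 is 2.00 without and 1.35 with PDGF-BB, off the line, while TXNRD1 lies on it at 0.58 and 0.58.

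Around these enzymes, 5 lists of other redox genes by textbook role held 113 genes, of which 99 were found and 87 tested. The lists were drawn up with earlier results of these data known. The shares called below therefore describe the lists and do not test them. In the main fit 4 were called higher and 6 lower with PDGF-BB, 2 were called with S100A4, both higher, and 12 were called higher and 5 lower with both proteins. These are 11.5%, 2.3% and 19.5% of the lists, beside 14.7%, 0.563% and 22% of all genes. In the paired fit the counts were 25 and 22, 10 and 6, and 27 and 23. These counts are shares of 54.0%, 18.4% and 57.5%, beside 48.8%, 10.7% and 56.1% of all genes. The median log2 differences of the 87 genes in the main fit were −0.05, −0.02 and −0.02, and those of all genes −0.02, −0.02 and −0.03.

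Among the genes that supply metals, a manganese transporter rose in all 3 comparisons with control. SLC39A14 encodes this transporter, which brings manganese, the metal of SOD2, as well as zinc and iron into cells. It was at 157, 142 and 167 CPM in control replicates 1, 2 and 3, at 243, 203 and 241 CPM with PDGF-BB, at 302, 383 and 311 CPM with S100A4 and at 362, 389.5 and 354 CPM with both. All treated libraries lay above all control libraries. It rose with PDGF-BB by 0.56 ± 0.11 on the log2 scale (SE; edgeR adjusted p 0.0077), with S100A4 by 1.10 ± 0.11 (adjusted p 0.0014) and with both by 1.25 ± 0.11 (adjusted p 7.2e-05). The copper importer SLC31A1 rose with both proteins (0.51 ± 0.11; adjusted p 0.0097). CCS, the chaperone that loads copper into SOD1, fell with PDGF-BB by 0.26 (SE 0.07; adjusted p 0.025) and with both by 0.28 (SE 0.07; adjusted p 0.013). Of the 13 genes tested in this list the paired fit called 4 higher and 3 lower with PDGF-BB, 2 with S100A4, both higher, and 4 higher and 5 lower with both. That is 53.8%, 15.4% and 69.2% of the list, against 48.8%, 10.7% and 56.1% of all genes.

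NRF2 and the genes around it moved in both directions. NFE2L2, which encodes NRF2, was at 151, 161 and 147 CPM in control replicates 1, 2 and 3, at 124, 138 and 121 CPM with PDGF-BB, at 194, 204 and 186 CPM with S100A4 and at 148, 155 and 155 CPM with both proteins. The PDGF-BB libraries lay below and the S100A4 libraries above all controls, and those given both overlapped with control. It fell with PDGF-BB by 0.26 (SE 0.07; edgeR adjusted p 0.028) and was higher with S100A4 by 0.35 ± 0.07 (adjusted p 0.064; paired fit 5.7e-05). With both proteins the paired fit gave 0.00 with a 95% interval from −0.09 to 0.09. MAFF, a small partner protein of NRF2, rose with PDGF-BB (1.75 ± 0.20; adjusted p 4.7e-04), with S100A4 (1.09 ± 0.20; adjusted p 0.045) and with both (2.28 ± 0.20; adjusted p 7.1e-05).

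OSGIN1, an oxidative stress-induced growth inhibitor, rose with PDGF-BB (0.83 ± 0.15; edgeR adjusted p 0.0056) and with both (0.96 ± 0.15; adjusted p 0.0017), and its S100A4 difference was 0.38 ± 0.11 in the paired fit (adjusted p 0.040; main fit adjusted p 0.66). SLC48A1, a haem transporter, fell with PDGF-BB by 0.45 (SE 0.06; adjusted p 6.4e-04) and with both by 0.64 (SE 0.06; adjusted p 6.0e-05). With S100A4 its difference was −0.19 ± 0.05 in the paired fit (adjusted p 0.029; main fit adjusted p 0.31). SQSTM1, the autophagy receptor p62 that binds the NRF2 inhibitor KEAP1, was lower with PDGF-BB (−0.45 ± 0.05) and higher with S100A4 (0.33 ± 0.05) in the paired fit (adjusted p 9.9e-06 and 8.7e-04), and the main fit called neither (adjusted p 0.14 and 0.96). Of the 24 genes tested the paired fit called 6 higher and 9 lower with PDGF-BB, 6 and 2 with S100A4, and 8 and 5 with both. These are 62.5%, 33.3% and 54.2% of the list, beside 48.8%, 10.7% and 56.1% of all genes.

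In the thioredoxin and peroxiredoxin list the largest changes named were of a sestrin. SESN1, a stress-responsive regulator of growth signalling, was at 11.8, 7.93 and 8.20 CPM in control replicates 1, 2 and 3 and at 2.48, 1.94 and 2.97 CPM with both proteins, and the groups did not overlap. It fell with PDGF-BB by 1.39 (SE 0.21; edgeR adjusted p 0.0020) and with both by 1.92 (SE 0.22; adjusted p 2.4e-04). The S100A4 libraries, at 6.81, 5.76 and 6.57 CPM, also lay below all controls (paired fit −0.54 ± 0.12; adjusted p 0.0092; main fit adjusted p 0.61). Its relative SESN2 was lower in the paired fit with PDGF-BB (−0.62 ± 0.08; adjusted p 3.5e-05; main fit adjusted p 0.47). PRDX6, a peroxiredoxin that draws on glutathione, was higher with PDGF-BB in the paired fit (0.34 ± 0.05; adjusted p 1.1e-04; main fit adjusted p 0.61). MSRB1, which repairs oxidised methionine, rose with both proteins (0.39 ± 0.11; adjusted p 0.026), as did the thioredoxin-like TXNDC17 (0.35 ± 0.10; adjusted p 0.026). TXN2, the mitochondrial thioredoxin, was lower with S100A4 in the paired fit (−0.22 ± 0.05; adjusted p 0.0075; main fit adjusted p 0.82). Of the 20 genes tested the paired fit called 7 higher and 5 lower with PDGF-BB, 2 with S100A4, both lower, and 6 and 6 with both. The shares, 60%, 10% and 60%, stand beside 48.8%, 10.7% and 56.1% of all genes.

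Among 20 glutathione genes tested the paired fit called 6 higher and 2 lower with PDGF-BB, 1 with S100A4, and 6 higher and 4 lower with both proteins. At 40%, 5% and 50% these shares lie below the 48.8%, 10.7% and 56.1% of all genes. The 1 called with S100A4 was SLC7A11, the cystine importer that feeds glutathione synthesis (0.49 ± 0.07, SE; edgeR paired fit adjusted p 3.1e-04; main fit adjusted p 1.0). The paired fit called SLC7A11 higher with PDGF-BB (0.31 ± 0.07; adjusted p 0.0019) and with both (0.52 ± 0.07; adjusted p 2.2e-05) as well, and the main fit called neither (adjusted p 0.77 and 0.51). With PDGF-BB the glutathione transferase GSTO1 was higher (0.37 ± 0.06; paired fit adjusted p 1.8e-04; main fit adjusted p 0.72). The mitochondrial glutaredoxin GLRX5 was higher too (0.37 ± 0.08; paired fit adjusted p 0.0017; main fit adjusted p 0.13). CHAC1, which degrades glutathione, was lower (−0.54 ± 0.11; paired fit adjusted p 7.7e-04; main fit adjusted p 0.68). GPX4 was listed at 0 in every library, where absent RNA and reads not assigned to the gene cannot be told apart.

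Of 10 oxidant-making enzymes tested, the paired fit called 2 higher and 3 lower with PDGF-BB, 1 higher and 2 lower with S100A4, and 3 higher and 3 lower with both proteins. The shares of 50%, 30% and 60% stand beside 48.8%, 10.7% and 56.1% of all genes. With S100A4 the genes called were NOX4, NOS2 and DUOX2. NOS2 and DUOX2 had low counts, given below, so the 30% is uncertain. NOX4, the NADPH oxidase of smooth muscle that releases hydrogen peroxide, was at 67.3, 122 and 84.2 CPM in control replicates 1, 2 and 3, at 35.4, 68.2 and 57.5 CPM with PDGF-BB, at 53.1, 95.5 and 73.5 CPM with S100A4 and at 33.4, 66.3 and 45.7 CPM with both. Every treated library lay below the control of its own number. The paired fit gave −0.77 ± 0.06, −0.30 ± 0.06 and −0.92 ± 0.06 (SE; adjusted p 2.8e-07, 0.0055 and 3.1e-08), and the edgeR main fit called none of these (adjusted p 0.18, 1.0 and 0.087). SMOX, a spermine oxidase that yields hydrogen peroxide, rose with PDGF-BB (0.79 ± 0.12; adjusted p 0.0017) and with both proteins (1.31 ± 0.12; adjusted p 7.1e-05), and its S100A4 difference was 0.12 ± 0.12. NOS2, the inducible nitric oxide synthase, had 1, 2 and 0 counts in control and 1, 2 and 0 with PDGF-BB, and 3, 3 and 41 counts with S100A4 and 9, 14 and 35 with both proteins (main fit adjusted p 0.48 and 0.040 against control). DUOX2 had 74, 32 and 2 counts in control, 24, 14 and 1 with S100A4 and 9, 4 and 0 with both proteins, too few for a stable fold.

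**Figure D5:**
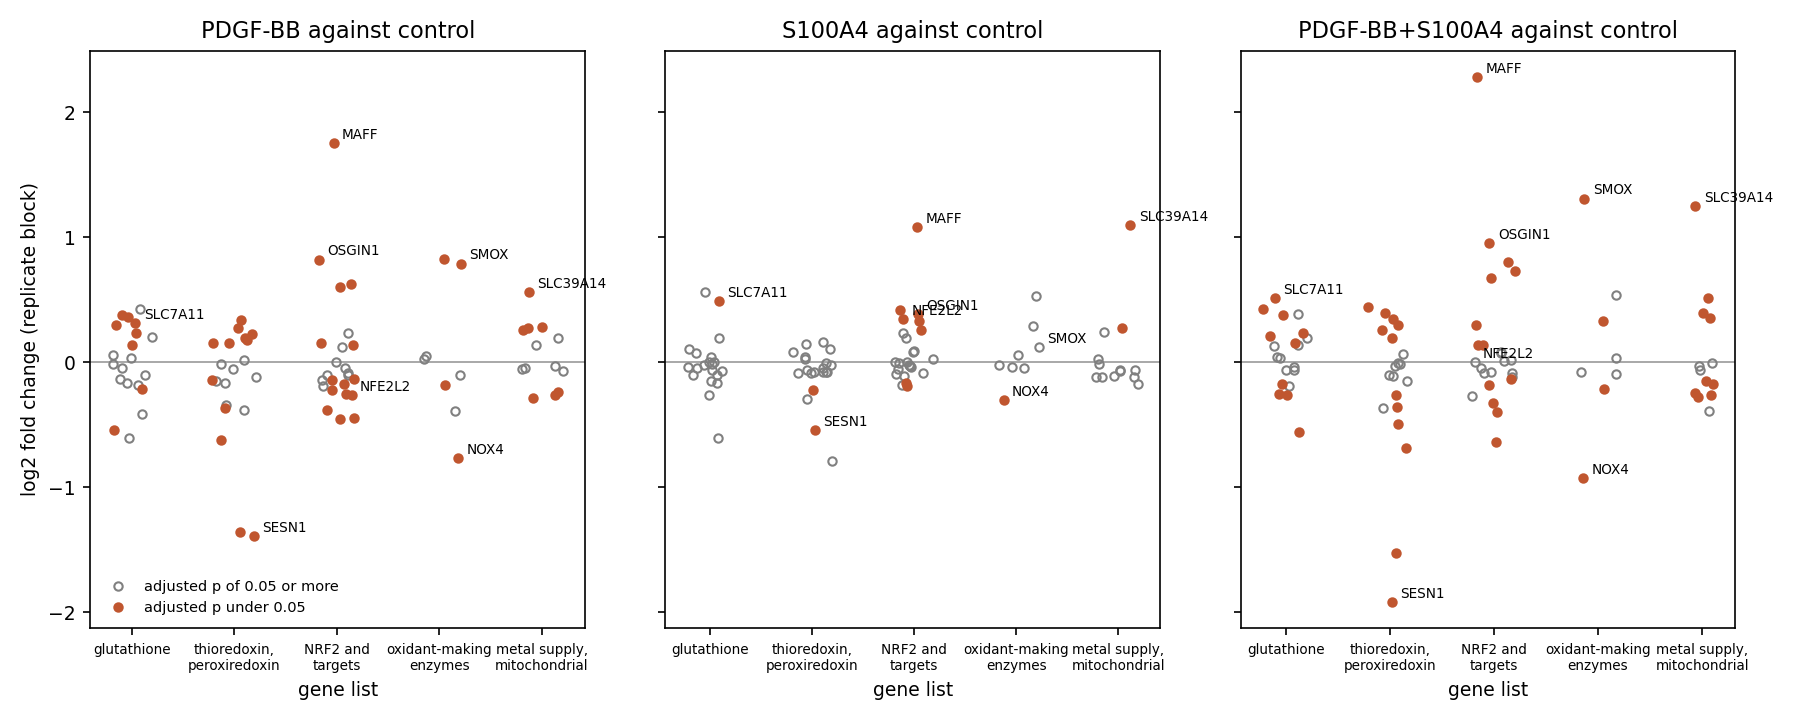
Log2 difference from control in the paired fit for the tested genes of the 5 redox lists, without NOS2 and DUOX2, in the 3 comparisons; filled points have an adjusted p under 0.05 and a random sideways shift separates points. MAFF, SLC39A14 and SMOX lie highest with both proteins, at 2.28, 1.25 and 1.31, and SESN1 lowest at −1.92.

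The genes whose levels followed SOD2 most closely were ranked by Pearson's r over the 12 libraries, on log2 CPM from which the mean of each replicate number had been subtracted, among 9417 genes. The 5 highest were RND1 (r = 0.996), AKR1D1 (0.992), IFNGR2 (0.991), RAPGEF2 (0.983) and IRAK3 (0.981). These libraries share the 4 treatments, so such an r mostly reflects the order of the group levels. RND1 was at 0.849 to 1.25 CPM in control, 0.526 to 1.04 CPM with PDGF-BB, 16.1 to 40.1 CPM with S100A4 and 5.26 to 11.0 CPM with both. IFNGR2, a subunit of the interferon gamma receptor, had the same order with smaller steps: 69.9 ± 13.2 CPM in control, 62.7 ± 13.4 CPM with PDGF-BB, 131 ± 19.2 CPM with S100A4 and 105 ± 14.3 CPM with both (SD, n = 3 each). IRAK3, an inhibitory kinase-like protein of Toll-like receptor signalling, was at 8.93 to 15.2 CPM with S100A4 against 3.16 to 5.49 CPM in control. Only genes with a mean of at least 1 log2 CPM were ranked. RND1 and AKR1D1, a steroid reductase, reached at most 1.25 and 0.949 CPM in control. With PDGF-BB they reached at most 1.04 and 0.612 CPM. Both genes thus met that minimum only through the groups given S100A4, where SOD2 too was high. With a prior count of 0.5 in place of 2, 9384 genes were ranked, and IFNAR2 (r = 0.978) and not AKR1D1 was among the 5. Whether AKR1D1 then fell under the minimum was not checked.

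For TXNRD1 the 5 closest genes were PITPNC1, NDRG1, NFKB1, DSE and IER3 (r = 0.973 to 0.983). None of these genes was among the 5 closest to SOD2, whose group levels stood in another order. As for SOD2, such an r mostly reflects the order of the group levels.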

How the data were processed

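The authors deposited raw counts, whole numbers of reads that were not normalized, for 21153 Ensembl gene identifiers. Per the submitters' processing notes the tools were featureCounts 1.4.6, STAR 2.4 and CASAVA 1.8.2, with the build Sscrofa11.1. The sources used here do not give their settings, the annotation release or the use of strand, so counts of overlapping genes or near-identical copies are uncertain. Libraries were TruSeq, sequenced as 100 nt single-end reads, per the labels' protocols. A symbol was found for 14572 identifiers through reference tables, and gene positions are those of RefSeq, Sscrofa11.1.

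Genes were kept by filterByExpr (minimum count 10) and library sizes scaled by TMM in edgeR 4.0.16 (R 4.3.3). The main fit covers all 12 libraries and was tested two-sided. Log2 CPM used a prior count of 2. At the lowest total, 1 CPM stands for 21.5 counts. The script was tested on simulated data. Replicates were checked for repeats, and none agreed within sampling noise (chi-square of 22.0 to 159 per gene). The 18 pairs of libraries with the same replicate number deviated together from their group means (r = 0.746 to 0.908, against −0.676 to 0.136 in the 36 other pairs), so the numbers were taken to pair the samples, from the data and not the labels. The coefficient of biological variation was 27.2% without and 5.14% with that block.

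The members and the gene lists were chosen with earlier results of these data known. From each list, up to 3 genes per comparison with control were named, those with the smallest adjusted p among genes called in the main fit, or in the paired fit where fewer than 2 were called. For SOD2 and the members called in the main fit, the 5 genes of highest correlation with a mean of at least 1 log2 CPM are named; those for CAT are not reported here. Alternatives, tried for the members, were DESeq2 1.42.0, other scalings and filters, smaller fits, the replicate block and left-out libraries.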

Additional observations from a re-analysis of the deposited data

Results flagged for a closer look

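MAFF, of the NRF2 list, differed in its response to S100A4 with and without PDGF-BB: the difference of the effects was −0.555 on the log2 scale in the fit with the replicate block (edgeR quasi-likelihood test, adjusted p 0.028), with 3 libraries per group. In the fit without the block it was −0.56 ± 0.28 (SE) with adjusted p 1.0. Of all genes, 0.113% were called for this difference with the block and 0% without it. The mean MAFF level was 28.6 CPM in control and 60.9 CPM with S100A4, and 96.2 CPM with PDGF-BB and 139 CPM with both. The smaller S100A4 effect with PDGF-BB thus holds on the log2 scale and not in CPM. MAFF rose with each protein and with both, and the libraries given both proteins were the highest, at 117, 147 and 152 CPM in replicates 1, 2 and 3.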

How the results depend on the processing

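Of the 7 genes other than SOD2, 0 were called for PDGF-BB against control in the main fit, and 1 by DESeq2, 5 with the replicate block, 4, 4 and 4 with the block and without replicate 1, 2 or 3, and 0 to 1 with libraries left out. For S100A4 against control the count was 0 in the main fit, 1 by DESeq2, 1 with the replicate block, and 1, 2 and 1 with the block and without replicate 1, 2 or 3. For both proteins against control it was 2 in the main fit and 3 by DESeq2. It was 1 without a filter on low counts, and 1 with only the groups compared in the fit. With the replicate block it was 5, and 4, 5 and 4 with the block and without replicate 1, 2 or 3. With libraries left out it was 0 to 2. For both proteins against PDGF-BB it was 0, and 1 by DESeq2, 1 with the replicate block, and 1, 1 and 1 with the block and a replicate left out. For both proteins against S100A4 it was 0, and 5 with the replicate block, 4, 4 and 4 with the block and a replicate left out, and 0 to 1 with libraries left out. In the order of these comparisons the main fit called 14.7%, 0.563%, 22%, 0.273% and 15% of all genes. The fit with the replicate block called 48.8%, 10.7%, 56.1%, 7.14% and 47.8%. DESeq2 called 2336, 205, 3165, 123 and 2318 genes. The counts thus differed between these fits over all genes too. Shares of all genes with libraries left out are not given here. The cause of the differences between fits was not tested. The SOD2 difference of PDGF-BB from control turned from −0.15 to 0.01 (0.008) without control replicate 2, and lay between −0.269 and 0.008 over the left-out libraries. Of all other log2 differences of the members under the alternatives, 870 kept their side of the threshold or their size, 61 gained a call, 11 lost one and 9 moved by more than the replicate spread. For both proteins against control the median log2 difference of all genes was −0.10 with upper-quartile scaling and −0.03 with TMM.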
